A study of Mus musculus with 24 samples.

Results

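The effect of status epilepticus (SE) on the mRNA of hippocampal CA1 was compared between 72 h and 12 h after SE, with the genes whose effect changed direction between these times described in most detail. The comparison is a difference of differences, in which the change from non-SE control (Ctr) to SE at 12 h is subtracted from the change from control to SE at 72 h, and it was fitted for each of 18153 genes. A gene was counted as reversing if it was called in one direction at 12 h, called in the other direction at 72 h, and called for the difference itself. There were 149 such genes. Of these, 122 were lower in SE at 12 h and higher at 72 h, and 27 were higher in SE at 12 h and lower at 72 h. A gene was called where its log2 difference was 0.66 or more in size and its p, adjusted over all genes, did not exceed 0.05. Since these calls chose the reversing genes, their values at 12 h, at 72 h and for the difference describe them, and only the comparison at 36 h took no direct part in the choice. The 36 h libraries did enter the same fit, through the filter, the factor of unwanted variation and the spread, and leaving out 1 of them left 140 to 144 of the 149 genes reversing.

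The animals were adult C57Bl/6N mice of at least 60 days and at least 20 g. All of them, controls included, received scopolamine methyl nitrate at 1 mg/kg and later diazepam at 4 mg/kg. SE animals received 335 mg/kg pilocarpine hydrochloride in between and entered the study only if SE developed, whereas control animals received saline. The CA1 region was cut out by hand from slices, and poly(A) RNA was sequenced in 24 libraries, 3 for each of 5 SE groups (from 6 h to 72 h) and 3 control groups (12, 36 and 72 h). The comparison itself uses 12 of these libraries, the SE and control libraries at 12 h and 72 h. The labels number the libraries of a group as replicates without saying whether each came from its own animal, so p-values measure the spread between these libraries, which may be in part technical.

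In the hours after SE, neurons that have fired intensely transcribe immediate early genes, which encode transcription factors and synaptic regulators that act for a short time. Microglia, the resident phagocytes of the brain, respond to injury by shutting down the purinergic receptors and surface proteins that mark the surveying state and by switching on phagocytic and lysosomal genes, after which they divide. Astrocytes react as well, with changes in ion and glutamate handling, in metabolism and in their cytoskeleton. Because whole CA1 tissue was sequenced, fewer cells of a type and less RNA per cell cannot be told apart in any value given here, nor can more cells and more RNA per cell.

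The libraries differed in ways that touch this comparison. Totals ranged from 2663936 to 30133731 counts, and the 3 control libraries at 72 h held 2663936, 5793721 and 11680209 counts, the first 2 of these the lowest of all. The genes of a sensory ganglion list, which CA1 tissue should hardly contain, summed to 1380 CPM in Ctr 72 h replicate 2, 718 and 372 CPM in SE 72 h replicates 1 and 2, and 525 CPM in SE 12 h replicate 1, against 5.58 to 60.7 CPM in the other 8 libraries of the comparison. The factor of unwanted variation in the fit was largest in the control libraries at 72 h, at -0.396, 0.797 and -0.358. The sample numbers in the labels fall into 3 ranges, and the highest range holds all control libraries at 72 h but no SE library at 72 h, so at 72 h the range and the treatment cannot be told apart. The 8 tested markers of CA1 pyramidal cells were above 0 in every library, with sums from 402 to 2050 CPM. The lowest sum was in SE 72 h replicate 1, against 870 and 1020 CPM in replicates 2 and 3. Neither the time of day of SE nor that of tissue collection is given in the sources used here, and 72 h but not 12 h is a whole number of days after SE, so phase of the day and time after SE cannot be told apart.

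The SE effect differed between 72 h and 12 h in 3385 genes, 18.6% of those tested, and it was higher at 72 h in 2245 of them (12.4%) and lower in 1140 (6.28%). The median difference over all genes tested was 0.15. At 12 h, 4587 genes (25.3%) were called between SE and control, 13.9% of all genes as higher and 11.4% as lower. At 72 h, 3538 genes (19.5%) were called, 15.3% as higher and 4.22% as lower. Both times called 1407 genes, of which 1258 had the same direction, so the 149 reversing genes made up 4.4% of the genes with a different effect. Without the low-depth, ganglion-rich Ctr 72 h replicate 2 the counts were 93 lower then higher and 47 higher then lower, and 74 of the 122 and 18 of the 27 genes still reversed. With the 4 libraries of the comparison richest in ganglion transcripts left out the counts were 67 and 5, from a fit in which SE 72 h is 1 library, assumed to vary like the other groups. The SE libraries lay below all controls at 12 h and above all controls at 72 h for 91 of the 122 genes, a pattern that 2.12% of all genes had, and the opposite way for 23 of the 27, against 1.53% of all genes. Every one of the 149 reversing genes kept the sign of its difference in all 17 other settings and all 12 omissions of 1 library. The settings that changed only the log2 threshold used the same fit and could not change a sign. Since the genes were chosen for called differences in these libraries, lack of overlap at both times follows in large part from the choice. For the same reason, a kept sign is weak evidence.

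**Figure D1:**
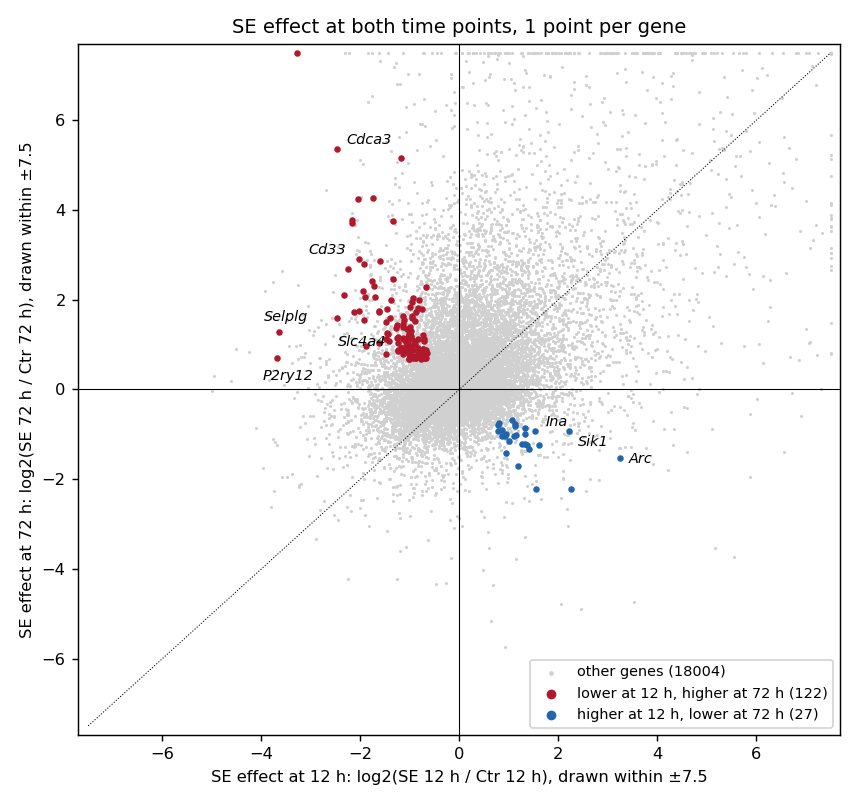
Log2 SE effect at 12 h (x axis) against the log2 SE effect at 72 h (y axis) for all 18153 genes, with the few values outside the frame drawn at its edge. Red points are the 122 genes lower at 12 h and higher at 72 h, blue points the 27 genes higher at 12 h and lower at 72 h, and the dotted line marks equal effects.

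Most genes with a different effect did not reverse. The effect was called only at 12 h for 644 genes that were higher and 710 that were lower in SE, and only at 72 h for 944 higher and 123 lower genes. It was higher at both times and larger at 72 h for 151 genes, higher at both and smaller at 72 h for 53, lower at both and smaller at 72 h for 15, and lower at both and larger at 72 h for 2. A further 594 genes were called at neither time. The reversing genes nearest to the threshold were Nherf1, with effects of -0.66 at 12 h and 0.80 at 72 h, Rnase4, with -0.67 and 2.28, and Rapgef3, with -0.78 and 0.67. Just outside were Smpdl3a (-0.67 and 0.65), Morn2 (-0.97 and 0.65) and Tmem229a (-0.65 and 0.91).

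Among the 122 genes that were lower at 12 h and higher at 72 h, genes of surveying microglia were the largest listed group. The homeostatic microglia list has 15 tested genes, and 6 of them reversed: Selplg, P2ry12, P2ry13, Gpr34, Tmem119 and Golm1. Of the 15, 9 were called lower at 12 h (11.4% of all genes) and 12 were called higher at 72 h (15.3%). All 15 had a higher effect at 72 h than at 12 h (12.4%). Of all genes tested, 0.672% reversed in this direction. The list's median effect went from -1.73 at 12 h to 1.95 at 72 h, with a median difference of 2.97 against 0.15 over all genes tested.

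Selplg encodes P-selectin glycoprotein ligand 1, an adhesion molecule of myeloid cells. It measured 32.7, 32.8 and 33.1 CPM in the Ctr 12 h libraries, 2.39, 2.78 and 2.63 in SE 12 h, 32.2, 33.8 and 46.5 in Ctr 72 h and 69.3, 111 and 91 in SE 72 h. The SE libraries lay below every control at 12 h and above every control at 72 h. The log2 effect was -3.65 at 12 h and 1.29 at 72 h, a difference of 4.94 with a standard error of 0.40 (edgeR adjusted p = 3.82e-07).

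P2ry12, the purinergic receptor by which surveying microglia sense ADP, measured 44.6, 41.5 and 46.2 CPM in Ctr 12 h and 3.23, 3.88 and 3.03 in SE 12 h. At 72 h it measured 49.3, 35.1 and 30.4 CPM in controls and 39.9, 80.7 and 67.9 in SE. The groups overlapped at 72 h, where SE 72 h replicate 1 lay below Ctr 72 h replicate 1, and the call at 72 h (log2 0.69, adjusted p = 0.0259) was lost without Ctr 72 h replicate 2 or 3 and without SE 72 h replicate 2 or 3. The difference of 4.38 with a standard error of 0.33 was called in every setting.

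P2ry13, a related ADP receptor, went from 11.4, 16.4 and 13.2 CPM in controls to 2.58, 2.19 and 2.63 in SE at 12 h. By 72 h its values were 16, 4.77 and 14.6 CPM in controls and 21.5, 37.8 and 38 in SE, with no overlap at either time. It reversed in every setting and omission, with differences from 3.53 to 4.42. The 2 receptor genes are neighbours on chromosome 3 (GRCm39), P2ry13 at chr3:59114539-59118304 and P2ry12 at chr3:59123682-59170429, and P2ry12 overlaps the coding gene Med12l on the opposite strand, whose reads cannot be told apart from its own.

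Gpr34, a lysophosphatidylserine receptor of microglia, had log2 effects of -1.73 at 12 h and 2.30 at 72 h. SE libraries held 3.66 to 5.07 CPM at 12 h and 29.3 to 67.2 at 72 h, against 13.7 to 16.3 and 5.46 to 15.1 in the controls. Tmem119, a membrane protein used as a microglial marker, had effects of -1.90 and 2.06, and its SE libraries rose from 2.79, 4.97 and 11.5 CPM to 65.4, 80.7 and 114. Tmem119 at chr5:113931781-113938577 and Selplg at chr5:113956597-113970705 also lie close to each other.

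Golm1, a Golgi membrane protein, reversed on less even values. Its control libraries at 12 h held 43.3, 24.3 and 102 CPM and overlapped the SE libraries, at 33.6, 24.9 and 28.9 CPM. At 72 h the SE libraries held 82.1, 97.1 and 95.9 CPM against 26.2, 24.7 and 19.5. It no longer reversed without Ctr 12 h replicate 3 or without SE 12 h replicate 2 or 3, and it overlaps the coding gene Naa35 on the opposite strand.

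The other 9 genes of the list had a called difference without reversing. Crybb1, Siglech and Slc2a5, which encode a crystallin, a sialic acid receptor and a fructose transporter, were called lower at 12 h alone, with effects of -2.66, -1.64 and -3.26. Csf1r, the receptor that microglia need for survival, Cx3cr1, the fractalkine receptor, Olfml3, a secreted matrix protein, Sall1, a transcription factor of microglial identity, and Ltc4s, which makes leukotriene C4, were called higher at 72 h alone. For these genes the effect at 72 h lay between 1.84 for Csf1r and 3.07 for Olfml3. Summed over the list, SE libraries held 253 to 268 CPM at 6 h and 278 to 337 at 12 h. At 24 h they held 473 to 656 CPM, at 36 h 626 to 782 and by 72 h 1250 to 1900, whereas control libraries held 402 to 549 CPM at any time.

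Markers of reactive microglia followed another course over the same interval. On a list of 19 such genes, 13 were called higher at 12 h (13.9% of all genes) and 16 at 72 h (15.3%). The effect was higher at 72 h for 9 of them (12.4%), and its median was 1.42 at 12 h and 2.81 at 72 h. Cd68, a lysosomal protein of phagocytes, was 2.32 higher at 12 h and 5.29 higher at 72 h on the log2 scale, the latter against 7.6, 0.171 and 8.62 CPM in Ctr 72 h. Trem2, a lipid receptor of phagocytes, was at 0.07 at 12 h without a call and 2.81 higher at 72 h. Of 11 complement genes, 7 were called higher at 12 h and 11 at 72 h.

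Several further myeloid genes outside the list were among the largest reversals. Cd33, a sialic acid binding inhibitory receptor, measured 12, 11.8 and 10.4 CPM in Ctr 12 h, 2.98, 2.68 and 2.63 in SE 12 h, 14.3, 2.22 and 4.87 in Ctr 72 h and 35.5, 55.7 and 56.6 in SE 72 h. Its difference was 4.93 with a standard error of 0.42 (edgeR adjusted p = 5.97e-07). Csf3r, the receptor of granulocyte colony-stimulating factor, had effects of -1.94 and 2.19 and a difference of 4.13, and SE libraries held 1.84 to 2.95 CPM at 12 h and 45.6 to 53.8 at 72 h. Both genes reversed in every setting and omission. Fgd2, an exchange factor for Cdc42, had effects of -1.40 and 1.60, but it reversed in only 3 of the 12 omissions of 1 library.

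The remaining genes named by size were of other kinds. Mlxipl encodes ChREBP, a transcription factor that responds to glucose, and had effects of -1.92 and 1.56. Rnase4, a secreted ribonuclease, had a small effect of -0.67 at 12 h that was lost in 5 of 12 omissions, and 2.28 at 72 h, where SE libraries held 67.6 to 78.5 CPM against 9.72 to 19.1 in controls. Crb2, a polarity protein, had effects of -1.60 and 2.87, with 5.57, 0.341 and 1.87 CPM in Ctr 72 h, and it reversed in 7 of the 12 omissions, not in that of Ctr 72 h replicate 2. Crb2 overlaps the coding gene Dennd1a on the opposite strand. Gm973 and Gm2629, which have no assigned function, had differences of 3.78 and 3.80.

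**Figure D2:**
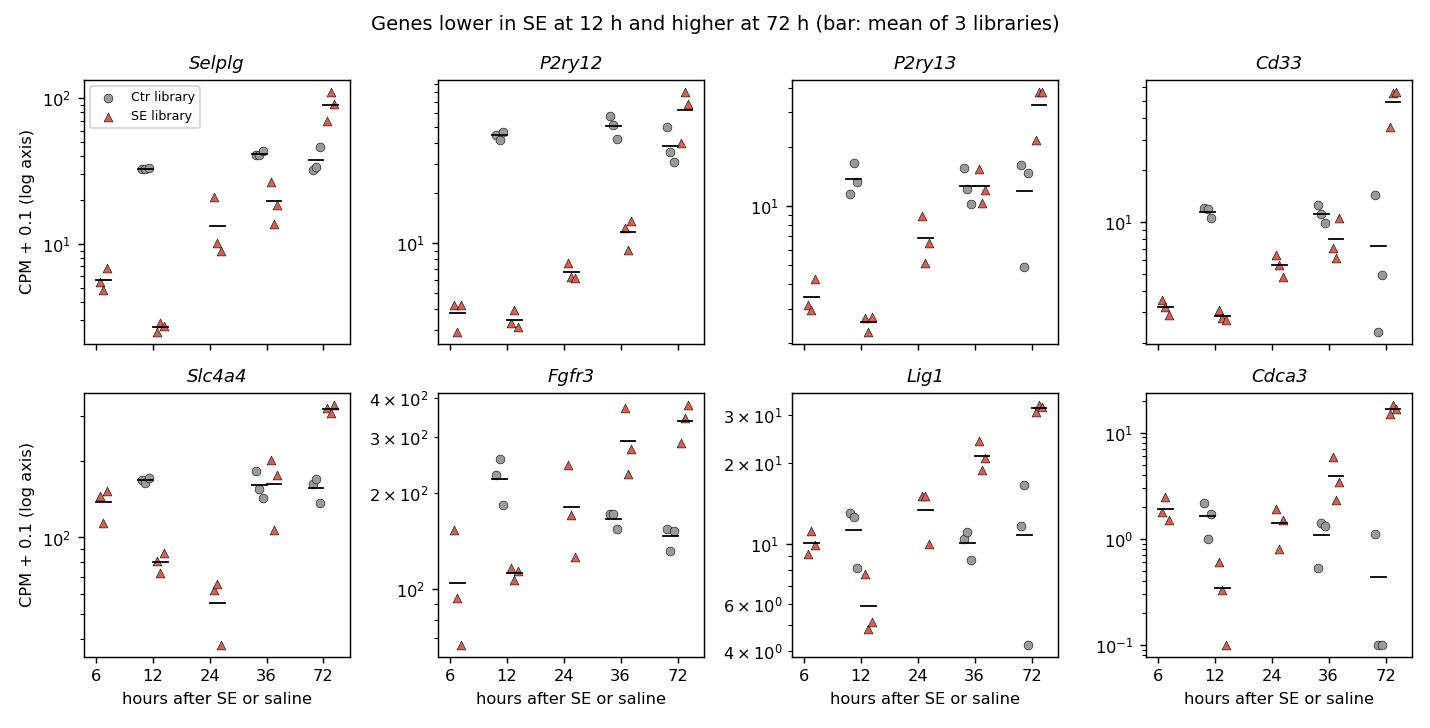
CPM of each library (y axis, log scale, 0.1 added) by hours after SE or saline (x axis, 5 sampling times at equal spacing) for 8 genes lower in SE at 12 h and higher at 72 h. Triangles are SE and circles control libraries, bars are means of 3 libraries, and no controls were sampled at 6 and 24 h. P2ry12 is the gene whose SE and control libraries overlap at 72 h.

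Astrocytic genes formed the other listed group in this class. Of 16 tested genes of the homeostatic astrocyte list, 6 were called lower and 1 higher at 12 h, against 11.4% and 13.9% of all genes. At 36 h, 7 were called lower and 4 higher (8.92% and 12.7%). At 72 h, 8 were called higher and 1 lower (15.3% and 4.22%). The effect was higher at 72 h than at 12 h for 10 of the 16 (12.4%), and Slc4a4 and Fgfr3 reversed. The list's median effect moved from -0.48 at 12 h through -0.32 at 36 h to 0.79 at 72 h. On a separate list of reactive astrocyte genes, all 16 were called higher at both 12 h and 72 h. Their median effects were 3.27 and 3.58.

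Slc4a4, the sodium bicarbonate cotransporter by which astrocytes buffer extracellular pH, kept its groups apart at both times. It measured 168, 163 and 171 CPM in Ctr 12 h, 81, 72.3 and 86.8 in SE 12 h, 162, 169 and 136 in Ctr 72 h and 322, 308 and 332 in SE 72 h. Its effects of -1.07 and 1.05 gave a difference of 2.11 with a standard error of 0.28, and it reversed in every setting and omission. Fgfr3, a fibroblast growth factor receptor of astrocytes, fell from 184 to 256 CPM in controls to 107 to 116 CPM in SE at 12 h, and stood at 287 to 380 CPM in SE against 132 to 155 in controls at 72 h.

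Genes on the list that did not reverse showed where the direction was not shared. Gja1, the gap junction protein connexin 43, and Glul, glutamine synthetase, were called lower at 12 h alone, at -1.05 and -1.17. Kcnj10, the Kir4.1 potassium channel, and Aldh1l1, a folate enzyme, were called higher at 72 h alone, at 2.12 and 2.13. Slc6a11, a GABA transporter, was lower by nearly the same amount at both times (-0.99 and -0.95), and the glutamate transporter Slc1a2 was below the threshold at both (-0.38 and -0.29).

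Some further reversing genes, chosen here after their values were seen, are also known from astrocytes. Slco1c1, a thyroxine transporter, measured 73 to 77.5 CPM in Ctr 12 h, 27.6 to 38.6 in SE 12 h, 56.4 to 78.2 in Ctr 72 h and 90.8 to 145 in SE 72 h. Timp4, an inhibitor of metalloproteinases, had effects of -0.88 and 1.73, and Hepacam, an adhesion protein of astrocytic end feet, -0.73 and 1.21. Timp4 overlaps the coding gene Syn2 on the opposite strand, and reads of the pair cannot be told apart.

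Genes of DNA replication and mitosis appeared in the class in small number, again named after their values were seen. Cdca3, a protein that triggers mitotic entry, was at 0.899 to 2.08 CPM in Ctr 12 h, 0 to 0.497 in SE 12 h, 0 to 1.01 in Ctr 72 h and 14.8 to 18.2 in SE 72 h. Lig1, the DNA ligase of replication, held 8.04 to 12.9 CPM in Ctr 12 h, 4.71 to 7.6 in SE 12 h, 4.12 to 16.4 in Ctr 72 h and 30.8 to 32.7 in SE 72 h. Smc2, a condensin subunit, had effects of -1.04 and 1.18. Cdca3 and Lig1 overlap the coding genes Usp5 and Zswim9 on the opposite strand. The 20 genes of the cell cycle list did not reverse. Of these, 5 were called higher at 12 h (13.9% of all genes) and all 20 at 72 h (15.3%). The effect was higher at 72 h for 15 of them (12.4%), and its median was 0.45 at 12 h and 2.83 at 72 h. Rrm2, a subunit of ribonucleotide reductase, was 0.57 at 12 h without a call and 5.25 at 72 h, with 34.4 to 53.4 CPM in SE 72 h.

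Xpnpep2, an aminopeptidase, had the highest fitted difference, 12.81, but on no more than 1.16 CPM in any of the 12 libraries, and its value rests on libraries at 0. In all, 40 of the 122 genes and 6 of the 27 had at least 1 of the 12 libraries under 10 counts.

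The 27 genes that were higher at 12 h and lower at 72 h included genes that follow neuronal activity. Arc, a synaptic regulator made within minutes of firing, measured 110, 88.1 and 106 CPM in Ctr 12 h and 635, 785 and 1490 in SE 12 h. At 72 h it measured 358, 180 and 195 CPM in controls and 40.8, 69.9 and 144 in SE. SE libraries thus lay above every control at 12 h and below every control at 72 h, and controls at 72 h lay above controls at 12 h. Its effects of 3.24 and -1.53 gave a difference of -4.77 with a standard error of 0.76 (edgeR adjusted p = 0.000297), and the reversal was lost without SE 72 h replicate 1 or 2 or Ctr 72 h replicate 1.

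Arc was the only reversing gene of 20 on the immediate early list. There, 15 genes were called higher at 12 h (13.9% of all genes) and 14 had a lower effect at 72 h (6.28%). Against control at 72 h, only 2 were called lower (4.22%) and 2 were called higher (15.3%). The median effect went from 2.20 to -0.64, while the median change between the control groups was 0.82, with 0 genes called. Egr2 and Fosb, which encode transcription factors induced by firing, were called higher at 12 h, at 3.91 and 4.34, and stood at -1.66 and -0.88 at 72 h without a call (adjusted p = 0.138 and 0.413). Nr4a1, a nuclear receptor induced by activity, had an effect of 1.24 at 12 h without a call and was called lower at 72 h, at -1.35. Of 15 activity-induced effectors, 14 were called higher at 12 h, 1 was called higher at 72 h and 11 had a lower effect at 72 h, with a median effect of 2.90 at 12 h and 0.28 at 72 h.

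Sik1, a kinase that restrains CREB coactivators, measured 15.2, 28.1 and 14.5 CPM in Ctr 12 h, 68.9, 77.8 and 122 in SE 12 h, 36.1, 20.1 and 31.5 in Ctr 72 h and 17.6, 9.73 and 17.4 in SE 72 h. The groups did not overlap at either time, but the effect at 72 h (-0.94, adjusted p = 0.0485) was close to the threshold and the gene reversed in 4 of 12 omissions. Apold1, an endothelial early response gene, had effects of 1.19 and -1.71, and 1700016P03Rik, a non-coding transcript that overlaps the coding genes Dph1 and Ovca2 on the opposite strand, 2.25 and -2.23.

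Other genes named by size were not of 1 kind. Ina, the neurofilament protein alpha-internexin, measured 225, 202 and 233 CPM in Ctr 12 h, 435, 614 and 879 in SE 12 h, 269, 161 and 294 in Ctr 72 h and 108, 123 and 142 in SE 72 h, and it overlaps the coding gene Nt5c2 on the opposite strand. Rims4, a protein of the presynaptic release site, went from 73.9 to 110 CPM in controls to 185 to 326 in SE at 12 h, and from 104 to 126 CPM in controls to 40.8 to 77.9 in SE at 72 h. Trim17, a ubiquitin ligase linked to neuronal death, had effects of 1.61 and -1.24. Zdbf2, an imprinted gene, held 64, 79.2 and 105 CPM in SE 12 h and 11.3, 18.2 and 20.5 in SE 72 h, against 23.9 to 38.4 and 30.4 to 52.5 in controls. Trim17, Zdbf2 and Ina were the 3 genes of this class that reversed in each of the 12 omissions, and none of the 3 reversed when the 4 ganglion-rich libraries were left out together, which leaves 1 SE 72 h library, although the difference of each was still called.

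**Figure D3:**
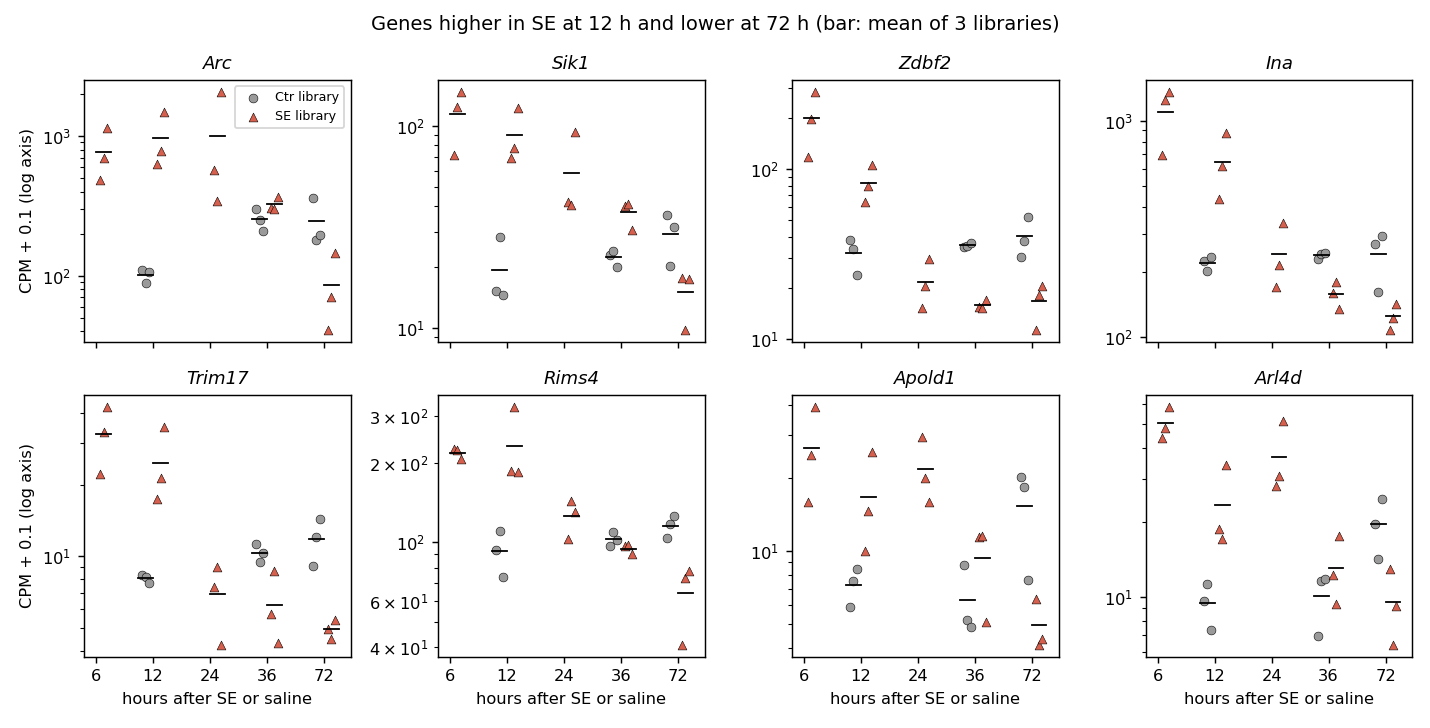
CPM of each library (y axis, log scale, 0.1 added) by hours after SE or saline (x axis, 5 sampling times at equal spacing) for 8 genes higher in SE at 12 h and lower at 72 h, drawn as for the opposite class. Zdbf2 and Ina were already under the 36 h controls in every SE library at 36 h.

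Cholesterol synthesis was the other list with members in this class. Idi1, the isomerase that makes the activated isoprene units of the pathway, measured 7, 6.43 and 6.61 CPM in Ctr 12 h, 11, 12.1 and 14.7 in SE 12 h, 9.37, 23.9 and 7.87 in Ctr 72 h and 5.44, 3.24 and 8.48 in SE 72 h. It had effects of 0.93 and -1.04, but its groups overlapped at 72 h, where SE 72 h replicate 3 held 8.48 CPM and Ctr 72 h replicate 3 held 7.87. Of 20 tested genes, 10 were called higher at 12 h (13.9% of all genes) and 2 lower at 72 h (4.22%). The effect was lower at 72 h for 11 of the 20 (6.28%). The median difference was -0.85, and the median change between the control groups was 0.45, with 0 genes called. Summed over the list, controls held 1020 to 1090 CPM at 12 h and 1260 to 1720 at 72 h, the highest in Ctr 72 h replicate 2. SE libraries held 1560 to 1750 CPM at 12 h and 1120 to 1140 at 72 h. Besides Idi1, the difference was -1.18 for Msmo1, -1.14 for Sqle and -1.39 for Cyp51, which encode enzymes of the pathway, and -1.24 for Insig1, which holds back its activation. Also named by size were Btg3, an antiproliferative factor, Arl4d, a small GTPase, and Gm43031, a transcript overlapping Cyp51 on the opposite strand, with differences between -2.54 and -2.32.

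The bases before the start of 3 genes of this class hold the full cyclic AMP response element, the palindrome TGACGTCA that CREB binds. Shown are the 250 bases upstream of the annotated start in GRCm39, on the gene's strand, with the element in capitals: Sik1 at chr17:32074819-32075068 on the minus strand, Arl4d at chr11:101556117-101556366 on the plus strand and Idi1 at chr13:8935669-8935918 on the plus strand.
Sik1: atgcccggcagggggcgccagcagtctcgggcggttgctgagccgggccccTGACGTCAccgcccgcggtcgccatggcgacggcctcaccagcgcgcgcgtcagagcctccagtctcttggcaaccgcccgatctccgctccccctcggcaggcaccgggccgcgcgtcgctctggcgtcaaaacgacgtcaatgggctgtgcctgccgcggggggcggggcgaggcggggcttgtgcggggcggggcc
Arl4d: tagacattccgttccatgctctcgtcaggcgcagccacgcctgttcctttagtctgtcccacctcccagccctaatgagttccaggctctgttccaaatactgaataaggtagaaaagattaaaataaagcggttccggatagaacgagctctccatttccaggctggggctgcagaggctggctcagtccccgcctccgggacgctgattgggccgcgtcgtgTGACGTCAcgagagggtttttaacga
Idi1: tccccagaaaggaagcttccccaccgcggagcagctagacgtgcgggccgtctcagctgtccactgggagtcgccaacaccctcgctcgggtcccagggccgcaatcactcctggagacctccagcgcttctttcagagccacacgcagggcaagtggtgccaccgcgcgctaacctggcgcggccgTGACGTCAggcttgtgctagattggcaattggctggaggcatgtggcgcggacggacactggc

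The element ends 192 bases before the start of Sik1, 19 before that of Arl4d and 56 before that of Idi1. It was in 3 of 27 windows of this class (11.1%), in 2 of 122 of the opposite class (1.64%) and in 334 of 18066 windows of all genes (1.85%). Other motifs, not all given here, were searched on both strands in the same way in both classes. Among all these shares, that of the cyclic AMP response element in this class lay furthest above all genes, and it was not tested. The AP-1 site TGANTCA was in 8 of 122 windows (6.56%, against 5.11%) and in 0 of 27. The E-box CACGTG was in 13 of 122 (10.7%, against 6.93%) and in 0 of 27. The PU.1 letters GAGGAAGT were in 2.03% of all windows and in neither class. These are matches of letters in short windows and say nothing of binding.

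The comparison of SE with control at 36 h was not part of the rule. Since the rule puts each gene on opposite sides of 0 at 12 h and 72 h, a gene with little effect at 36 h lies between by construction, and the absolute effect at 36 h was under 0.66 for 91 of the 122 genes and 20 of the 27. The median effect at 36 h was -0.13 for the first class, between -1.05 at 12 h and 1.13 at 72 h, and -0.11 for the second, between 1.14 and -1.04. In the first class, 12 genes were called higher at 36 h (9.84%, against 12.7% of all genes tested) and 12 were called lower (9.84%, against 8.92%). In the second, 3 genes were called lower (11.1%), among them Zdbf2 and the non-coding B230216N24Rik. All 3 SE libraries at 36 h lay above the controls for 18 of the 122 genes and below them for 36, and for 3 and 8 of the 27, against 25.8% and 26.2% of all genes. Over all genes tested, 21.6% were called at 36 h in either direction. SE 36 h replicate 3 held 627 CPM of ganglion transcripts. Without it, 15 reversing genes were called at 36 h in the direction of 72 h and 11 in that of 12 h, against 15 and 12 with it. The first count was 5 without Ctr 36 h replicate 3 or SE 36 h replicate 1 and 8 without Ctr 36 h replicate 2.

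Individual genes crossed zero at different times. P2ry12 and Selplg were still called lower at 36 h, at -2.12 and -1.10, with 8.99 to 13.4 CPM of P2ry12 in SE against 41.9 to 58 in controls. Slco1c1 was also lower then, at -0.95. Rnase4, Lig1, Fgfr3 and Golm1 were already called higher at 36 h, at 1.33, 1.09, 0.82 and 0.87, and Cdca3 at 1.91. P2ry13, Csf3r and Slc4a4 lay at the level of the controls, at -0.01, 0.02 and 0.02. Among genes of the opposite class, Zdbf2 was called lower at 36 h, at -1.18, whereas Sik1 was at 0.73 and Arc at 0.36 without a call.

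The step between 2 neighbouring times was also tested, in the same fit. From 12 h to 36 h the effect differed for 42 of the 122 genes and 8 of the 27, against 3.37% of all genes, and from 36 h to 72 h for 65 and 4, against 4.89%. Since the steps share libraries with the comparison that chose the genes, these counts describe the course. Both steps were called for 17 genes, including Selplg, P2ry12, Cd33, Csf3r, P2ry13, Gpr34 and Slc4a4. Levels in SE libraries at 6 h, which have no controls of their own time, were already low for the microglial genes, at 4.7 to 6.71 CPM for Selplg and 2.84 to 4.16 for P2ry12. Slc4a4 was lower at 24 h, at 37.8 to 65.8 CPM, than at 12 h, and Zdbf2 held 117 to 285 CPM at 6 h and 15.2 to 29.7 at 24 h.

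**Figure D4:**
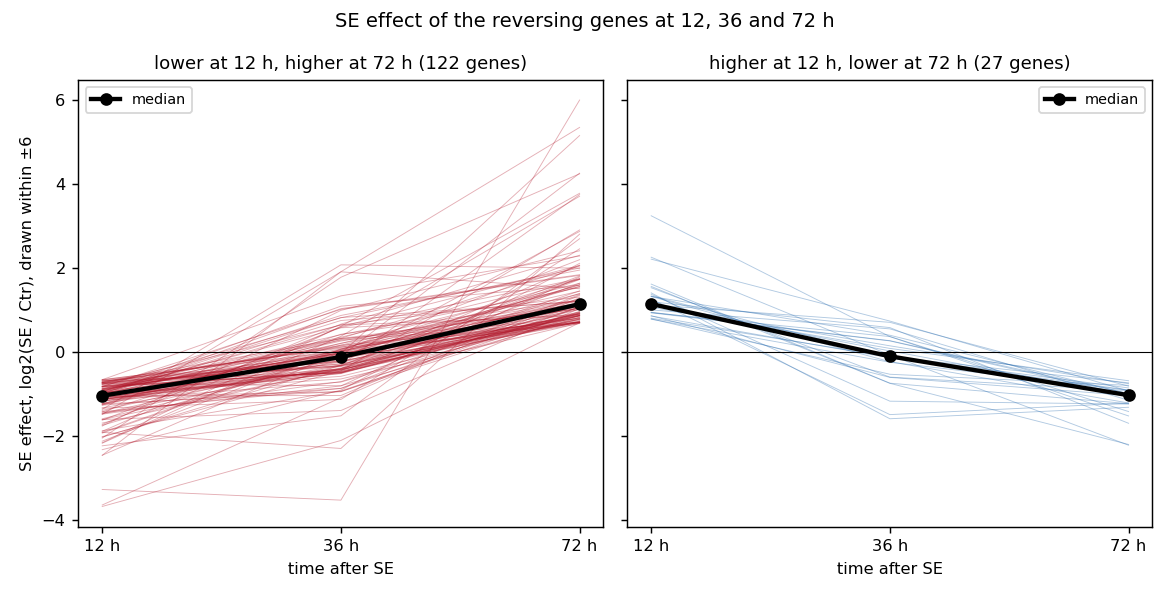
Log2 SE effect (y axis, with values outside the frame drawn at its edge) at 12, 36 and 72 h (x axis) for the 122 genes lower then higher (left) and the 27 genes higher then lower (right). Thin lines are genes and the black line is the median, which lies at -0.13 and -0.11 at 36 h.

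The difference can be split into the change between the SE groups and the change between the control groups. The SE groups at 72 h and 12 h differed in the matching direction for 114 of the 122 genes and all 27. Over all genes 24% were called between the SE groups, 14.2% as higher at 72 h and 9.71% as lower. The control groups were called for 12 of the 122 genes (9.84%), all lower at 72 h, against 1.03% of all genes in either direction and 0.672% in that one, and the median change between controls was -0.43 in the first class and 0.63 in the second. The choice of genes used these same SE and control libraries, so the counts for both changes describe the genes and do not test them. In 21 of the 122 and 2 of the 27, the change between controls was larger than that between SE groups. Scd3, a fatty acid desaturase, was one, at -2.96 between controls and -0.36 between SE groups. Over all genes, 187 were called between the control groups, but 1207 without Ctr 72 h replicate 1. Without Ctr 72 h replicate 2, edgeR called 0, with 2053 genes at an unadjusted p under 0.05, and with all libraries DESeq2 called 400 and limma-voom 1. Among the genes described above, the log2 change between control groups was 0.17 for Selplg, -0.19 for P2ry12, 0.12 for Csf3r, -0.11 for Slc4a4 and 0.10 for Ina. It was -0.81 for Cd33, -0.60 for Fgfr3, -1.25 for Golm1, 0.58 for Sik1 and 1.26 for Arc, none of them called.

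Reversal needs the difference and 2 further calls, so it cannot hold more often than the difference. The difference was called in every setting for 79 of the 122 genes and 16 of the 27. Reversal held in each of the 12 omissions of 1 library for 38 and 3 genes. It held in every omission and every other setting for 10 genes, all lower then higher: Cdca3, Cd33, Csf3r, P2ry13, Gpr34, Gm973, Lpcat2, Vsir, Galns and Slc4a4. Of those not yet described, Lpcat2 makes phospholipids including platelet-activating factor and had effects of -1.47 and 1.26, Vsir is an inhibitory receptor of myeloid cells (-1.14 and 1.39), and Galns is a lysosomal sulfatase (-1.02 and 1.22).

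Both classes were mainly protein-coding, with 112 of 122 and 20 of 27 genes, and 9 and 5 genes were long non-coding. Their levels were lower, with a median over genes of the mean log2 CPM of 3.49 and 3.23, against 3.97 for all genes tested. Because counting ignored the strand, the 30 and 5 genes that overlap a coding gene on the opposite strand are uncertain.

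Beyond the reversing genes, the largest differences in each pattern had recognizable members. Fndc9, of unassigned function, was 121 to 276 CPM in SE 12 h and 3.05 to 7.26 in SE 72 h, with a difference of -5.97. Among genes called higher at 72 h alone, Tpx2 and Ncaph, a spindle factor and a condensin subunit, had effects of 4.34 and 4.39. Genes higher at both times and larger at 72 h included Tlr2, a receptor of bacterial lipoproteins (3.81 and 8.0, the latter against 0 to 0.75 CPM in Ctr 72 h, with a change of 1.72 between the SE groups), and A2m, a protease inhibitor (3.36 and 6.84). Those smaller at 72 h included Lcn2, a siderophore-binding protein of reactive astrocytes (7.32 and 3.49, with the controls themselves 3.89 higher at 72 h), and Hmox1, heme oxygenase 1 (4.80 and 2.13). Dbp and Hlf, transcription factors with a daily rhythm, were lower at both times and less so at 72 h, with effects of -3.77 and -1.11 for Dbp and -2.64 and -1.21 for Hlf.

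Other lists differed in how the interval separated them. Of all genes tested, 13.9% were called higher and 11.4% lower at 12 h, and 15.3% higher and 4.22% lower at 72 h. The effect was higher at 72 h for 12.4% of all genes and lower for 6.28%. Of 10 clock genes with an evening phase, 7 were called lower at 12 h and 3 at 72 h, and the median effect was -1.41 and -0.46. Of 13 heat shock genes, 8 were called higher at 12 h and 8 had a lower effect at 72 h, with medians of 1.39 and 0.00. All 17 interferon response genes were called higher at 72 h and 3 at 12 h. Neuronal markers had a median effect of -0.41 at 12 h and -0.40 at 72 h, and their 12 genes summed to 9840 to 11300 CPM in SE 12 h and 9850 to 9930 in SE 72 h. Interneuron markers were lower by 0.66 at the median difference, with 4 of 10 called. Dentate granule cell markers, which belong to the neighbouring region, summed to 235 CPM in SE 72 h replicate 1 and to 18.5 and 25.6 in replicates 2 and 3. They summed to 5.8 to 16 CPM in Ctr 72 h, 34.6 to 110 in Ctr 12 h and 17.8 to 96.5 in SE 12 h. Their part in the results was not tested.

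**Figure D5:**
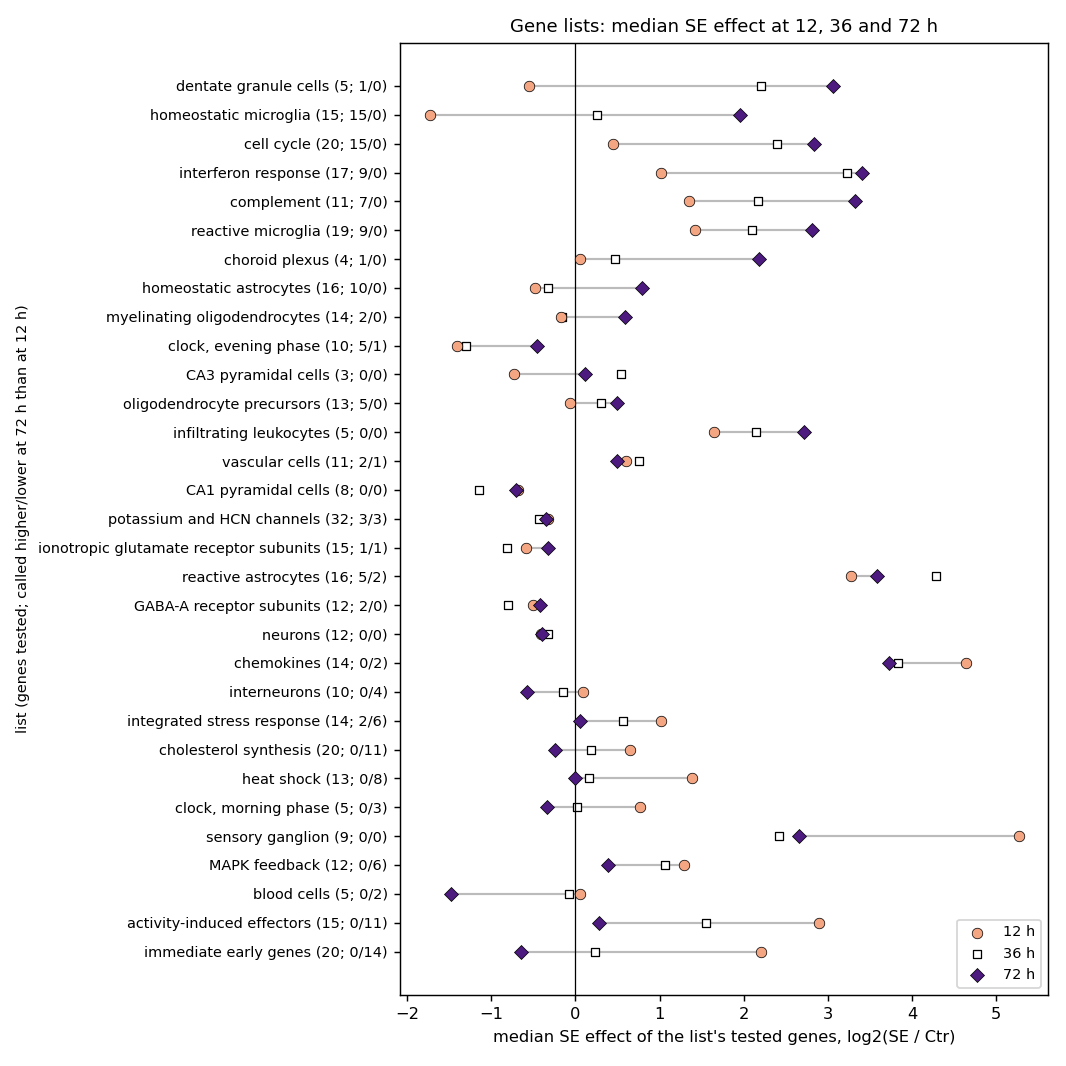
Median log2 SE effect (x axis) of each gene list (y axis, with the number of genes tested and the numbers called higher and lower at 72 h than at 12 h) at 12 h (circles), 36 h (squares) and 72 h (diamonds), ordered by the median difference. The median moves from -1.73 to 1.95 for homeostatic microglia and from 2.20 to -0.64 for immediate early genes. Of the 20 immediate early genes, 2 were called lower and 2 higher at 72 h.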

How the data were processed

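The authors deposited 1 table of read counts per gene for 24 libraries of CA1 mRNA. Per the labels and the study's methods, reads were trimmed (Trim Galore 0.6.6), aligned to GRCm39 (STAR 2.7.8a, SAMtools 1.10) and counted without regard to strand (HTSeq 0.13.5), so reads of overlapping genes on opposite strands cannot be told apart. These deposited counts were not normalized. From them, 18153 of 18647 genes passed filterByExpr over the 8 groups. Counts were scaled by TMM and fitted for all groups together with 1 RUVr factor of unwanted variation by the quasi-likelihood test of edgeR 4.0.16 in R 4.3.3 (limma 3.58.1, DESeq2 1.42.0 for alternatives), with Benjamini-Hochberg adjustment over all genes. Calls were made at 0.05 for the adjusted p and 0.66 for the size of the log2 difference. CPM are the counts scaled to a common library total by TMM, and sums over lists are sums of CPM. Gene names came from GENCODE, which matched 18552 genes and left 95 unmatched.

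Named were, in each class of reversing genes, the 12 with the largest difference among genes of mean log2 CPM of at least 1 whose SE and control libraries did not overlap at either time, all reversing genes on a list, and up to 5 genes of each other pattern. Of the latter only some are described, and results for a few other genes are not reported here. The genes, lists and tests were chosen with earlier results of these data known. Totals ran from 2663936 to 30133731 counts, so low genes are least precise in the control libraries at 72 h. On simulated counts with 100 genes reversing at a log2 size of 1, 47% were recovered as reversing, and 69% at 1.5. The reversing genes were drawn from those above a low level in the controls. The simulated counts held no unwanted variation shared between genes, such as ganglion transcripts, so these rates need not hold in the data. Alternatives were other tools, scalings, filters, thresholds and factors, thinning to the smallest total, and omission of each library.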

Additional observations from a re-analysis of the deposited data

Results flagged for a closer look

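The SE effect differed between 72 h and 12 h for 3385 genes, and 149 genes had called effects of opposite direction at these times. Chosen for that difference, 28 named genes were also tested for each step between neighbouring times by edgeR, with adjustment over all genes. The step from 12 h to 36 h was called for 18 of them, that from 36 h to 72 h for 12, both for 8 and neither for 6.

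Both steps were upward in microglial and myeloid genes. The log2 effect rose by 2.56 and then 2.38 for Selplg, by 1.57 and 3.36 for Cd33, by 1.57 and 2.81 for P2ry12, by 1.96 and 2.17 for Csf3r, by 2.46 and 1.59 for P2ry13 and by 2.39 and 1.64 for Gpr34. It also rose at both steps for Gm973, by 1.71 and 2.07, and for the astrocytic transporter gene Slc4a4, by 1.08 and 1.03.

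The first step alone was called for Tmem119 (2.50), Mlxipl (1.99), Rnase4 (2.00), Golm1 (1.83) and Fgfr3 (1.80), and the second alone for Gm2629 (3.59). Among genes higher at 12 h and lower at 72 h, the first step was called for Arc (-2.88), Trim17 (-2.36), Zdbf2 (-2.55), Ina (-2.13) and Rims4 (-1.45), and the second for Sik1 (-1.67), Apold1 (-2.28) and Gm43031 (-1.79). A step that missed the call is not shown to be absent.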

How the results depend on the processing

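Across 812 values of the difference for 28 named genes under other settings, 806 kept their direction and call, 6 lost the call and 0 changed direction. Values under the settings that changed only the log2 threshold came from the same fit and could not change direction. Most of these genes were named for the size of their difference in these same libraries, which favours kept calls. The genes whose difference lost its call were Gm43031, Idi1, Crb2 and Fgd2, and reversal was lost by more. The count of 3385 genes became 2233 on thinned counts, where 1240 were higher and 993 lower, against 2245 and 1140, and 1512 with the 4 ganglion-rich libraries left out, a setting chosen after seeing the data that leaves 1 SE 72 h library, assumed to vary like the other groups. Genes lower then higher, 122, became 79 with no RUVr factor, 81 with a replicate block and no RUVr factor, 70 thinned, 79 with a ganglion score, 67 without the 4 libraries, 223 with no log2 threshold and 55 at a threshold of 1. Genes higher then lower, 27, became 43 with 2 RUVr factors, 43 with DESeq2, 14 with limma-voom, 5 without the 4 libraries, 110 with no threshold and 12 at 1. With the range of label numbers as a factor the counts were 85 and 38, and 61 genes were shared with the 149. Reversing genes called at 36 h in the direction of 72 h, 15, became 6 thinned, 28 with no threshold and 8 at 1. Those in the direction of 12 h, 12, became 7 with no RUVr factor, 20 with 2, 7 with a ganglion score, 6 without the 4 libraries, 39 with no threshold and 5 at 1. Reversing genes called between the control groups, 12, became 25 with 2 RUVr factors, 26 with DESeq2, 21 with no threshold and 7 at 1. They became 0 by edgeR with no RUVr factor, with a replicate block and no RUVr factor, with only the 4 groups, thinned, with a ganglion score and without the 4 libraries, and 0 by limma-voom. Apart from the fit without the 4 libraries, 27 to 61 of the reversing genes had an unadjusted p under 0.05 in these settings. So had 1689 to 2867 of all genes tested, of which 0 to 25 were called between the control groups. With only the 4 groups, 88 genes were lower then higher and 34 higher then lower. Of these, 61 had such a p, against 2867 of 17237 genes tested. Why the counts moved was not tested.

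Leaving out 1 library gave 2931 to 3858 genes with a different effect, 93 to 179 lower then higher, 11 to 47 higher then lower, 5 to 17 called at 36 h in the direction of 72 h, 8 to 27 in that of 12 h and 0 to 101 called between controls. Genes higher then lower numbered 17 without Ctr 12 h replicate 3, 18 without Ctr 12 h replicate 1, 16, 11 and 41 without SE 72 h replicates 1, 2 and 3, and 47 without Ctr 72 h replicate 2. Samples with the same number did not deviate together (correlations from -0.232 to 0.285), so the numbers were not taken as pairs. With a replicate block and the RUVr factor, 3488 genes differed, 127 were lower then higher and 40 higher then lower. In the 4-group setting no value at 36 h could be had. Depth limits the low genes most, since 40 of the 122 and 6 of the 27 genes had a library under 10 counts.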
